A study of Mus musculus with 2 samples.

Results

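Collagens and laminins are the main building blocks of the extracellular matrix, and their genes were followed here across the cell types of the mouse brain. All genes of the count tables whose symbol is Col, a number, a and a number, or Lama, Lamb or Lamc and a number, were taken as members, which gave 55 of 32285 genes, 44 collagen and 11 laminin genes. Of these, 45 had at least 50 unique molecular identifiers (UMIs, the tags that count each captured transcript once) over both libraries, 35 collagen and 10 laminin genes, against 16277 such genes in all. The 9 collagen genes under that limit, Col6a4, Col6a6, Col10a1, Col13a1, Col19a1, Col20a1, Col22a1, Col24a1 and Col28a1, had 6 to 43 UMIs and are described no further.

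The cells came from female mice aged 11 to 12 months in which human E3 or E4, alleles of the lipid carrier apolipoprotein E, stands in place of mouse Apoe on both chromosomes. For each genotype the right hemispheres of 3 mice, without brainstem and cerebellum, were pooled, digested with warmed enzymes, freed of debris and measured as 1 droplet-based single-cell RNA-seq library that reads the 3′ ends of transcripts. The labels give no other treatment, and both groups share sex, age, digest and the human gene in place of the mouse one. Since each genotype is 1 pool and 1 library, no test of genotype was possible, animals cannot be told apart, and every interval below is a 95% interval that covers counting error only.

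Sequencing gave 11485 barcodes with 56415229 UMIs for E3 and 13802 with 71625170 for E4. Of these barcodes, 11288 and 13528 passed the UMI and mitochondrial limits of the study, with medians of 3803.5 and 4102 UMIs per cell and 44 barcodes in common. The paper kept fewer cells of each genotype and also removed small clusters of suspected doublets, so the cells here are not its set. Cells were clustered without the 55 members, so that no class was defined by a collagen or laminin gene, and 11 classes were named from marker genes, each with "-like" as a reminder that the name rests on markers. The meningeal-like class held 176 E3 and 186 E4 cells, the mural-like class (pericytes and smooth muscle around vessels) 96 and 204, and the endothelial-like class 1029 and 1521. Mural-like cells passed 11 of 11 markers, and meningeal-like cells 5 of 10, so that name rests on fewer genes. Markers of other classes were found in both, and their part in the member levels was not tested. Astrocyte markers, all 8 of them detected, stood at 9.0% and 9.01% of their astrocyte-like level in mural-like cells and at 9.74% and 10.1% in meningeal-like cells of E3 and E4. Of the 10 meningeal markers, 5 in E3 and 6 in E4 were detected in mural-like cells, at a sum of 561 and 591 CPM (UMIs per 1000000 UMIs of a class), or 21.0% and 23.7% of the meningeal-like level. Clusters that could not be given 1 name held 156 and 232 cells with mixed markers and 315 and 476 unnamed cells, and they are in no class.

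Collagens assemble from 3 alpha chains, each from its own gene or several copies of 1, and fall into families by the structure they build. Collagen IV forms the sheet of basement membranes, collagens I, III and V form fibrils, and collagen VI forms beaded filaments. Laminins are cross-shaped trimers of 1 alpha, 1 beta and 1 gamma chain, and with collagen IV they make the basement membrane that wraps every brain vessel and lies under the pia at the brain surface. In the brain, endothelial cells, mural cells and astrocytes all face the vascular basement membrane, while fibroblasts of the meninges make fibrillar collagen.

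Col4a1 and Col4a2, the chains of the most common collagen IV, are read away from each other on chromosome 8 of GRCm38 (the assembly called mm10), Col4a1 at chr8:11198423-11312826 on the minus strand and Col4a2 at chr8:11312805-11449287 on the plus strand. Their start sites lie 21 bases apart, so that the windows from 250 bases before to 50 after each start share 78 bases. Both windows are shown because these paired chains gave the most member UMIs in endothelial-like cells, and that of Col1a2, on chromosome 6, because it gave the most in meningeal-like cells. They were taken from RefSeq on GRCm38.p6, at chr8:11312777-11313076 on the minus strand, chr8:11312555-11312854 on the plus strand and chr6:4505368-4505667 on the plus strand. Capitals mark CCAAT and GGGCGG on either strand (ATTGG and CCGCCC where the match is on the other strand).
Col4a1: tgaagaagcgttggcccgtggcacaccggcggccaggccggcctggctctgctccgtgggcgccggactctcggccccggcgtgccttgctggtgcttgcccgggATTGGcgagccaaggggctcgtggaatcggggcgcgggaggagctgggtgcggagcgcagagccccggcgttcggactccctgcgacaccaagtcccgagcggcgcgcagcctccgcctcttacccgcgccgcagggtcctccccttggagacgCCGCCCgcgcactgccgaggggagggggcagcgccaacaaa
Col4a2: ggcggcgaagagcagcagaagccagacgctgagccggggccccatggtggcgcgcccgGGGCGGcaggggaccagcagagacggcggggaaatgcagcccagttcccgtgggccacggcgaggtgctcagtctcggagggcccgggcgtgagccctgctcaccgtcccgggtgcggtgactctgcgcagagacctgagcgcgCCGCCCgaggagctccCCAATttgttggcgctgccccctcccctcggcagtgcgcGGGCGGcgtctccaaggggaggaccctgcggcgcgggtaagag
Col1a2: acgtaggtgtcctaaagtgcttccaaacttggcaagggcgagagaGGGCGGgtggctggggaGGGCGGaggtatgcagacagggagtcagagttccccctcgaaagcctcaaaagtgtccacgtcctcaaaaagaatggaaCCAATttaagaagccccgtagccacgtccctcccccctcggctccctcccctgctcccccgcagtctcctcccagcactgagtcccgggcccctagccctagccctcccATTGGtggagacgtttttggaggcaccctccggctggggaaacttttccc

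The Col4a1 window held 1 match to CCAAT and 1 to GGGCGG, the Col4a2 window 1 and 3, and the Col1a2 window 2 and 2. None of them held TATAAA. RefSeq windows were found for 32 of the 45 members, 36 windows in all, since some genes have several start sites. GGGCGG was in 66.7% of the member windows and in 35.6% of all 32817 windows of that length, CCAAT in 36.1% and 37.4%, and TATAAA in 8.33% and 13.6%. A match says only that these letters are present.

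Levels were given as CPM, the UMIs of a gene per 1000000 UMIs of its class and library. They compare 1 gene between classes, but not 1 gene with another, since counts of 3′ ends are not scaled by length and genes differ in how well they are captured. Of the 45 members, 17 had their highest level in meningeal-like cells in both libraries, 16 collagens and Lama1, or 37.8% of the members beside 4.80% of all genes with at least 50 UMIs. Mural-like cells were highest for 11 members, 24.4% beside 4.71% of all genes, and 7 of these 11 were laminins. The mural collagens were Col4a3, Col4a5, Col4a6 and Col18a1. Ependymal-like cells, which line the ventricles, were highest for 6, namely Col4a4, Col5a3, Col6a5, Col26a1, Lama3 and Lamb3 (13.3% beside 14.1%), microglia-like cells for 3 (6.67% beside 8.83%), choroid plexus-like cells for 2 (4.44% beside 4.45%), endothelial-like cells for 2 (4.44% beside 7.45%), astrocyte-like cells for 1 (2.22% beside 8.74%) and oligodendrocyte-like cells for 1 (2.22% beside 7.62%). Macrophage-like, neuroprogenitor-like and erythroid-like cells were highest for 0 members, beside 711, 2118 and 25 of the 16277 genes. Outside the meningeal-like and mural-like classes, the share of members was thus no larger than that of all genes. For Col7a1 and Col9a1 the highest class differed between the libraries. The lead over the next class was larger than counting error in both libraries for 15 of the 17 meningeal and 6 of the 11 mural members. It was not for Col14a1 and Col5a1 of the first set, nor for Col4a3, Col4a5, Col4a6, Lama5 and Lamb1 of the second. In the other classes the lead was that large for 2 of the 6 ependymal and 2 of the 3 microglial members. The same held for 1 of 2 in choroid plexus-like, 1 of 1 in astrocyte-like, 0 of 2 in endothelial-like and 0 of 1 in oligodendrocyte-like cells.

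**Figure D1:**
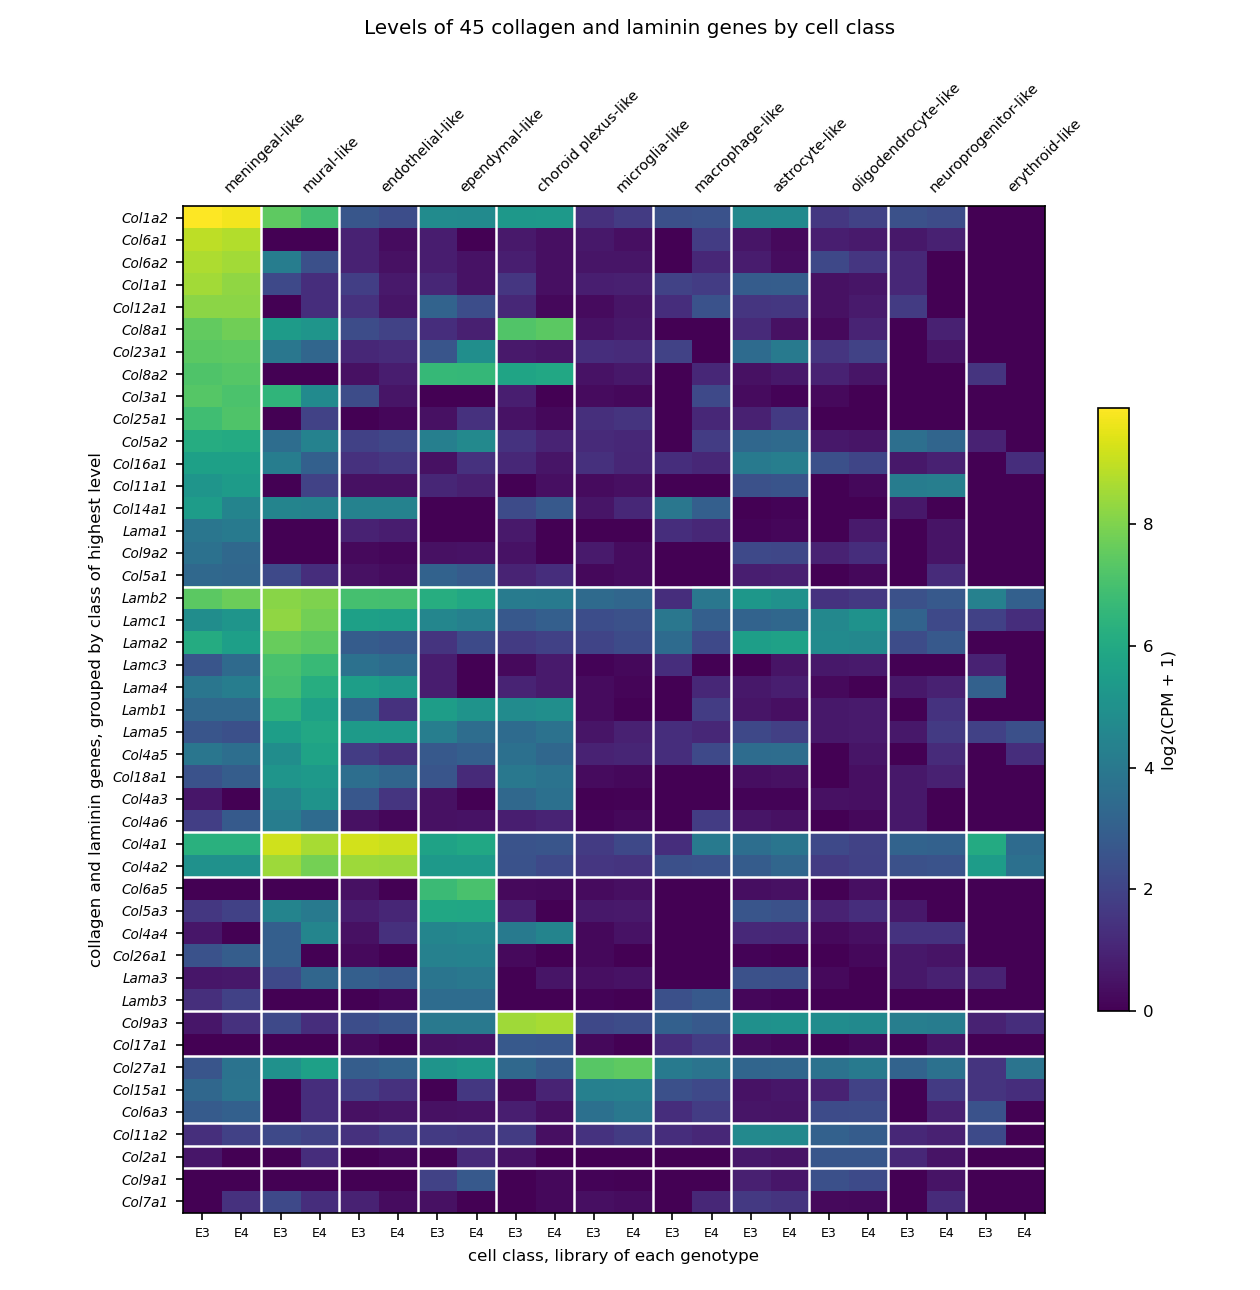
Levels of the 45 collagen and laminin genes (rows) as log2(CPM + 1) in 11 cell classes, each with the E3 and the E4 library side by side (columns), with the genes grouped by the class in which they were highest. Meningeal-like cells hold the block of 17 genes at the top, led by Col1a2 at 957 CPM in E3 and 859 in E4, and mural-like cells hold the laminin block under it.

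Fibrillar collagens, the rope-forming members, were mainly meningeal. Col1a1 stood at 366 CPM (340 to 394) in E3 and 308 (283 to 335) in E4 meningeal-like cells, and the next class, astrocyte-like cells, at 6.31 and 6.57. Col1a2, its partner chain, stood at 957 CPM (914 to 1001) and 859 (817 to 902), with mural-like cells next at 175 and 118. Both chains of collagen I thus had their highest level in the same class, but their next classes differed. Col3a1, whose product mixes with collagen I in soft tissue, was at 156 and 136 CPM in meningeal-like and 87.6 and 25.9 in mural-like cells, a lead of 1.78-fold in E3 and 5.24-fold in E4. Mural-like cells, which also held the meningeal markers named above, were thus second for Col1a2 and Col3a1 alike. The 2 chains of collagen I were less even there, with 50 and 82 UMIs of Col1a2 in E3 and E4 but 1 and 1 of Col1a1. Meningeal-like cells held 1854 and 1571 UMIs of Col1a2 and 710 and 564 of Col1a1. Whether the mural-like UMIs of Col1a2 came from meningeal cells was not tested. In meningeal-like cells Col5a2, a chain that helps to start fibrils, was at 69.7 and 66.1 CPM, and Col11a1 at 35.1 and 42.6. Of the 10 fibrillar members with at least 50 UMIs, 6 were highest in meningeal-like cells.

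The other 4 departed from the family. Col5a3 was highest in ependymal-like cells, at 58.2 and 57.3 CPM in E3 and E4, with mural-like cells next at 21.0 and 15.8. Col27a1 was highest in microglia-like cells, at 161 CPM (154 to 168) and 173 (167 to 179), and stood at 15.7 and 12.9 in macrophage-like cells. Oligodendrocyte-like cells of 1 small cluster also reached 107 and 88.2 CPM of Col27a1, and microglia markers there stood at 38.5% and 42.4% of their microglia-like level. Col11a2 was highest in astrocyte-like cells, at 24.1 and 23.6 CPM, and its level was 60.8 and 67.0 in the Gfap-led cluster among them. Col2a1, known from cartilage, was highest in oligodendrocyte-like cells at 5.30 and 5.34 CPM, from 28 and 33 UMIs.

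The chains of collagen VI did not all share a class. Col6a1 and Col6a2, the chains present in every collagen VI molecule, were at 483 and 439 and at 407 and 368 CPM in meningeal-like cells of E3 and E4, while mural-like cells held 0 UMIs of Col6a1 in both libraries, with an upper bound of 12.9 CPM in E3 and 5.30 in E4. Col6a3, the chain that completes the classical trimer, was instead highest in microglia-like cells, at 11.6 and 14.5 CPM, against 6.19 and 7.10 in meningeal-like cells. Over both libraries this lead was a log2 difference of 0.98, but 0.12 without cells holding markers of another class and -0.16 with totals free of mitochondrial, haemoglobin and rRNA-overlapping genes, so the class in which Col6a3 was highest depended on the setting. Col6a5 was found almost only in ependymal-like cells, at 107 CPM (94.7 to 119) and 134 (119 to 149), and was at 0.373 and 0 CPM in endothelial-like cells. Col6a1 and Col6a2 lie on the same strand of chromosome 10, 85161 bases apart, and shared their class. Col6a1 took 54.3% and 54.4% of the UMIs of the pair in meningeal-like cells.

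Among the fibril-associated and membrane-spanning collagens, Col12a1 was at 290 CPM in both libraries of meningeal-like cells. Col23a1 was at 167 and 175 and Col25a1 at 117 and 144, both spanning the membrane. Col23a1 was far lower in its next class, mural-like cells of E3 at 14.0 CPM and ependymal-like cells of E4 at 28.9. Col16a1 was at 49.0 and 48.1 CPM. Col9a3, a chain of collagen IX, stood apart from the 4 meningeal members of its group, at 358 CPM (342 to 374) and 390 (375 to 406) in choroid plexus-like cells, 11.6-fold and 12.0-fold above astrocyte-like cells. Unnamed cells, which are in no class, had 51.7 and 75.4 CPM of Col9a3, above astrocyte-like cells at 30.8 and 32.5. Col17a1 was highest in choroid plexus-like cells too, at 5.78 and 5.47 CPM from 30 and 34 UMIs, without a clear lead. The short chain collagens Col8a1 and Col8a2, which form hexagonal networks, were highest in meningeal-like cells at 183 and 216 and at 143 and 155 CPM. Their next classes differed, with Col8a1 at 147 and 171 CPM in choroid plexus-like cells and Col8a2 at 98.2 and 96.9 in ependymal-like cells. Col8a1 made up 56.0% and 58.3% of the UMIs of this pair in meningeal-like cells, 73.3% and 73.7% in choroid plexus-like cells and 1.46% and 0.844% in ependymal-like cells.

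Collagen IV was vascular for its common chains. Col4a1 stood at 601 CPM (580 to 622) in E3 and 554 (538 to 570) in E4 endothelial-like cells, and at 578 (493 to 673) and 386 (342 to 436) in mural-like cells. Col4a2 stood at 351 and 341 CPM in endothelial-like cells and at 350 and 224 in mural-like cells. In E3 neither gene differed between the 2 classes beyond counting error, and in E4 endothelial-like cells were 1.43-fold (1.27 to 1.63) and 1.52-fold (1.29 to 1.80) higher. Meningeal-like cells had 76.9 and 77.6 CPM of Col4a1, and ependymal-like cells 51.3 and 58.9. Microglia-like cells had 2.30 and 3.47. Col4a1 took 63.2% (61.8 to 64.5) and 61.9% of the UMIs of the pair in endothelial-like and 62.3% and 63.3% in mural-like cells. In meningeal-like cells its share was 71.0% (64.3 to 77.0) and 71.4% (64.5 to 77.5), with an interval that just met that of endothelial-like cells in E3.

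The rarer chains of collagen IV, which make other trimers of the same sheet, followed a second pattern. Col4a3 was highest in mural-like cells at 21.0 and 33.1 CPM, from 6 and 23 UMIs, and Col4a5 at 28.0 and 53.2 CPM. Col4a6 was highest there as well, from 5 and 7 UMIs. Col4a4 was highest in ependymal-like cells at 21.5 and 23.5 CPM, close to choroid plexus-like cells at 16.0 and 21.1 and to mural-like cells of E4 at 21.6. Col4a3 and Col4a4 are read away from each other on chromosome 1, 71 bases apart. Col4a4 took 98.3% (91.1 to 100.0) and 100% (93.7 to 100) of the UMIs of the pair in ependymal-like cells, 63.8% and 64.2% in choroid plexus-like cells and 39.5% (24.0 to 56.6) in mural-like cells of E4. Choroid plexus-like cells held both chains. Multiplexin collagens sit in basement membranes too, and Col18a1, the source of endostatin, was highest in mural-like cells at 35.0 and 38.8 CPM. Col15a1 was highest in microglia-like cells at 18.7 and 19.3 CPM, but without a clear lead. In E4 it was 1.47-fold (0.97 to 2.32) above meningeal-like cells. A meningeal-like sub-cluster of 23 cells, described below, had 264 CPM of Col15a1.

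All but 3 of the 10 laminin members were highest in mural-like cells. Lama2, known from muscle and brain, stood at 193 CPM (145 to 250.9) in E3 and 170 (140 to 203) in E4 mural-like cells, against 67.6 and 47.0 in meningeal-like, 45.7 and 50.3 in astrocyte-like, 25.7 and 23.97 in oligodendrocyte-like and 6.34 and 5.63 in endothelial-like cells. Its level in astrocyte-like cells was thus above that in endothelial-like cells. Lama4, an alpha chain of vessels, was at 123 and 70.4 CPM, with endothelial-like cells next at 45.9 and 37.8. Lama5 was at 45.6 and 60.4 against 40.8 and 39.8 in endothelial-like cells, which in E3 lay within counting error. The alpha chains of vessels were thus found in both vascular classes. Lamb1 was at 84.1 and 50.3, and ependymal-like cells followed at 44.4 and 33.4. Lamb2 was at 280 and 256, followed by meningeal-like cells at 168 and 204. Lamc1, the gamma chain of most laminins, was at 305 CPM (244 to 376) and 220 (186 to 258), a lead of 6.22-fold and 4.84-fold over endothelial-like cells. Lamc3 had the widest lead of the laminins highest in mural-like cells, 11.2-fold and 10.1-fold, at 133 and 101 CPM. Lama1 was meningeal, at 13.9 and 15.3 CPM. Lama3 and Lamb3, known from skin, were highest in ependymal-like cells, at 13.5 and 14.4 and at 10.2 and 10.3 CPM. Neither had a lead over the next class beyond counting error in both libraries.

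Which chain prevailed differed between classes. Shares of UMIs within a chain type, taken over the members with at least 50 UMIs, compare classes and not amounts of protein. Lama2 took 84.4% (81.7 to 86.9) of the alpha chain UMIs in E3 and 86.5% (84.1 to 88.7) in E4 astrocyte-like cells, and 96.5% and 94.9% in oligodendrocyte-like cells. In endothelial-like cells Lama4 took 45.5% and 42.1% and Lama5 40.5% and 44.3%, while Lama2 was 6.28% and 6.27%. Mural-like cells lay between, with 52.9% and 54.9% of Lama2 and 33.7% and 22.8% of Lama4. Lama5 led in choroid plexus-like cells with 72.2% and 76.0%. Ependymal-like cells shared their alpha chains between Lama3, 39.8% and 50%, and Lama5, 52.7% and 37.1%. Of the beta chains, Lamb2 took 98.4% and 98.8% in astrocyte-like and 93.9% and 98.5% in endothelial-like cells. Lamb1 took 61.5% and 64.6% in choroid plexus-like cells. Lamc3 was 30.4% and 31.4% of the gamma chains in mural-like and 19.6% and 18.0% in endothelial-like cells, and Lamc1 was the rest.

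**Figure D2:**
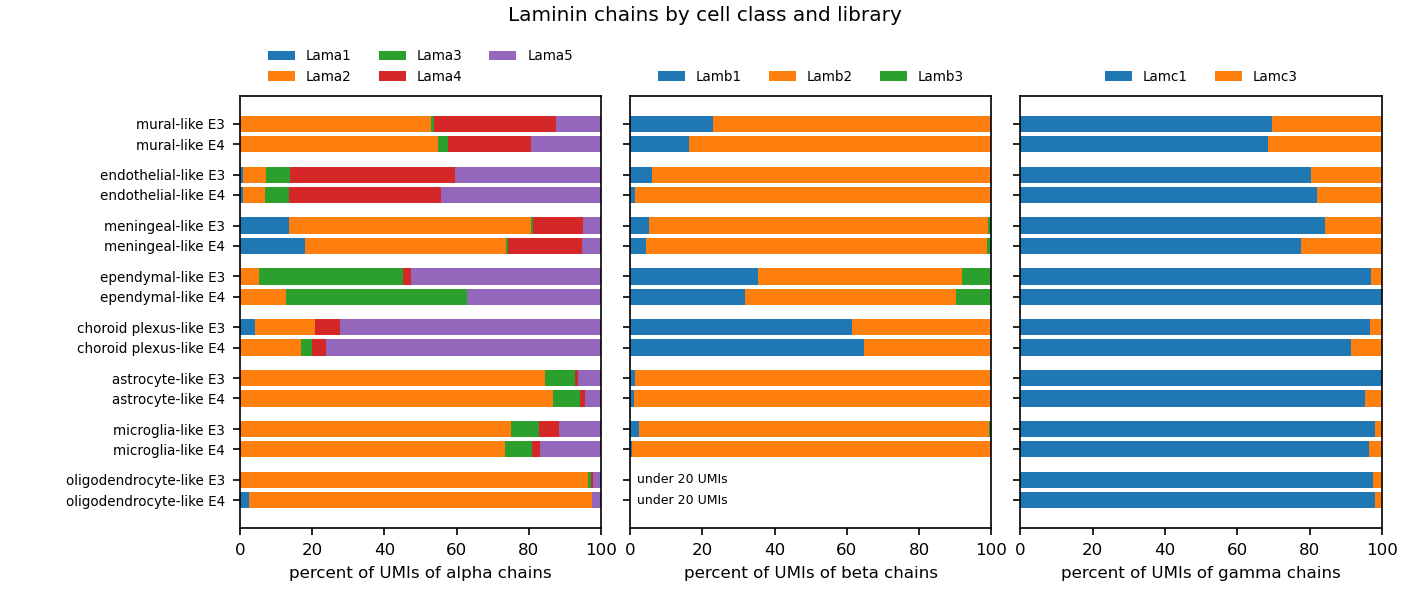
Share of each laminin gene in the UMIs of its chain type (horizontal axis, percent, alpha, beta and gamma chains in separate panels) for each cell class and library (vertical axis). Astrocyte-like bars are mostly Lama2 (84.4% and 86.5%), endothelial-like bars are mostly Lama4 and Lama5, and Lamb1 takes the larger part of the beta chains in choroid plexus-like cells (61.5% and 64.6%).

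All 55 members together made up 0.397% (0.388 to 0.406) of the UMIs of meningeal-like cells in E3 and 0.382% (0.373 to 0.391) in E4. Mural-like cells followed with 0.269% (0.250 to 0.288) and 0.204% (0.193 to 0.215), and endothelial-like cells with 0.133% and 0.123%. Choroid plexus-like and ependymal-like cells were at 0.0754% and 0.0817% and at 0.0725% and 0.0760%. Glia had less, with 0.0282% and 0.0297% in astrocyte-like, 0.0234% and 0.0253% in microglia-like and 0.0139% and 0.0150% in oligodendrocyte-like cells. Collagens were 0.366% and 0.348% of all UMIs in meningeal-like cells and laminins 0.0314% and 0.0345%. In mural-like cells the parts were nearer, 0.152% and 0.110% for collagens and 0.117% and 0.0937% for laminins. By their numbers, meningeal-like cells held 23.7% and 17.3% of all member UMIs of a library with 3.59% and 2.71% of its UMIs. Endothelial-like cells held 22.0% and 25.5%, and astrocyte-like cells 12.5% and 11.6%.

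**Figure D3:**
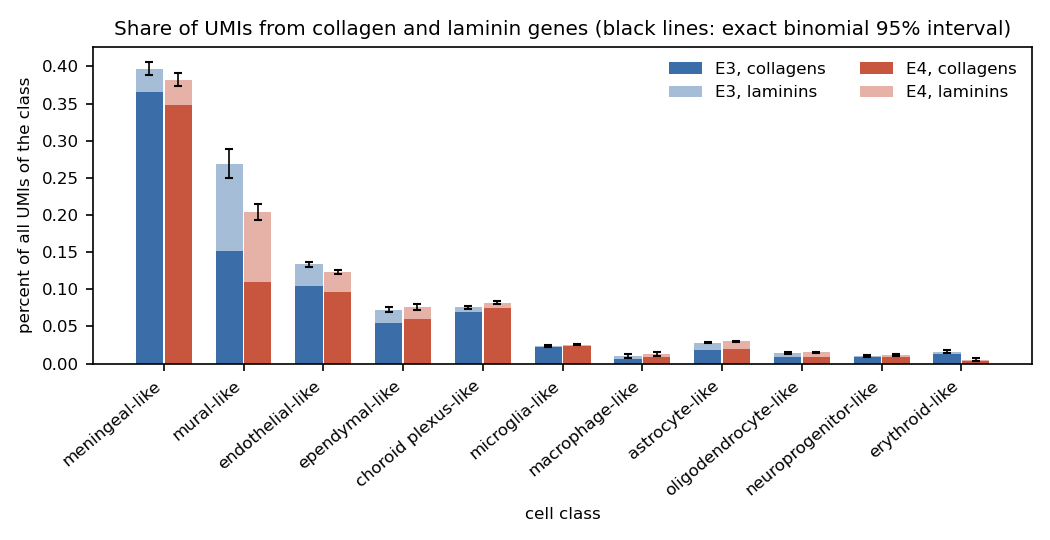
Percent of all UMIs of a cell class (vertical axis) that came from collagen genes (solid) and laminin genes (lighter, on top) for E3 and E4, with the exact binomial 95% interval of the sum as black lines. Meningeal-like cells reach 0.397% and 0.382%, mural-like cells 0.269% and 0.204%, and laminins fill a larger part of the mural-like bars than of any other named class with over 0.1%.

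Free RNA in the droplets can give any class a few UMIs of an abundant gene. With each cell thinned to 1000 UMIs, Col1a2 was seen in 61.0% and 57.2% of meningeal-like cells of E3 and E4, in 13.4% and 9.25% of mural-like, in 2.22% and 2.36% of astrocyte-like and in 0.128% and 0.180% of microglia-like cells, which are not known to make collagen I. Without thinning, the shares were 88.1% and 86.02% at medians of 8415 and 7569.5 UMIs in meningeal-like, and 0.563% and 0.943% at 3746 and 4372 UMIs in microglia-like cells. Col1a2 UMIs were spread over all 5 astrocyte-like clusters, at 9.27 to 40.1 CPM in E3 and 13.9 to 35.3 in E4. Col27a1 was seen after thinning in 14.8% and 15.9% of microglia-like and in 0.204% and 0.281% of endothelial-like cells.

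Inside mural-like cells the levels of laminins differed between 2 kinds of cell. Sub-clusters, again found without the members, gave 158 pericyte-like cells (58 E3 and 100 E4) and 69 smooth muscle-like cells (19 and 50), each with 5 of 5 markers, and 73 further cells led by astrocyte or microglial genes. Over both libraries, pericyte-like cells had 333 CPM of Lama2 and smooth muscle-like cells 29.3, a log2 ratio of 3.51 (2.64 to 4.50). Lama4 stood at 163 and 26.8 CPM and Lamb1 at 144 and 7.32 CPM in pericyte-like and smooth muscle-like cells, Lamc1 at 455 and 112 and Lamc3 at 176 and 53.7. The order was the opposite for Lama5, with 9.42 CPM in pericyte-like and 117 in smooth muscle-like cells, a log2 ratio of -3.64 (-5.96 to -2.00). Lamb2 at 185 and 393 CPM and Col18a1 at 3.14 and 65.8 followed Lama5. Lama2, Lama4 and Lamb1 were thus higher in one kind of cell, and Lama5 and Lamb2 in the other. Col4a1 was nearer, at 568 and 380 CPM, and Col4a2 at 254 and 305 did not differ beyond counting error. Intervals here treat cells of 2 pools as 1 count, and no test was made.

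Meningeal-like cells were also not uniform. A sub-cluster of 23 cells (12 E3 and 11 E4), led by genes such as Vtn, Slc6a13, Slc22a6 and Aldh1a2, held most of the Lama1. Vtn is on the list of mural markers. These cells passed 6 meningeal markers and 1 each of the pericyte, astrocyte, microglia and oligodendrocyte markers, whose part in these levels was not tested. Lama1 stood there at 320 CPM in E3 and 422 in E4, from 26 and 20 UMIs, beside 2.47 CPM over both libraries in the other meningeal-like cells, a log2 ratio of 7.18 (6.13 to 8.39). Col15a1 was at 264 CPM beside 1.92 and Col9a2 at 264 beside 1.65. Col4a1 was at 521 beside 61.6. The same 23 cells had 0 UMIs of Col8a1 and of Col25a1, with an upper bound of 28.7 CPM for each, and 93.3 CPM of Col6a1. A sub-cluster of 55 cells led by Mfap4 and H19 had 776 CPM of Col1a1 and 1395 of Col1a2. One of 52 cells led by Msln and Dpp4 had 154 CPM of Col1a1, 230 of Col23a1 and 185 of Col25a1. Col23a1 and Col25a1 were thus higher where Col1a1 was lower.

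**Figure D4:**
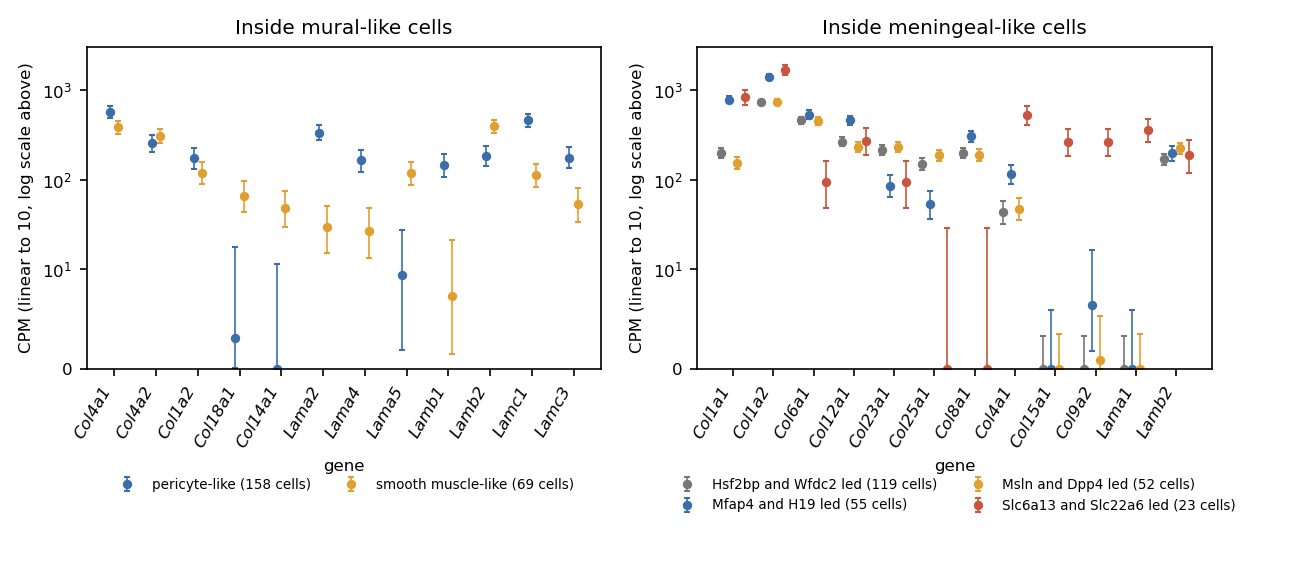
Levels in CPM (vertical axis, linear up to 10 and log above) of 12 members in sub-clusters of mural-like cells (left) and of meningeal-like cells (right), both libraries summed, with exact Poisson 95% intervals. On the left, Lama2, Lama4 and Lamb1 lie higher in pericyte-like and Lama5, Lamb2 and Col18a1 in smooth muscle-like cells. On the right, Lama1, Col15a1 and Col9a2 exceed 200 CPM in the 23 Slc6a13 and Slc22a6 led cells and reach at most 6.43 CPM in the other 3 sub-clusters shown.

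The study's comparison was E4 with E3. Ratios were formed for members with at least 50 UMIs in a class of at least 100 cells per library, and 9 pairs of a member and a class were at least 1.5-fold apart, 7 of them with an interval that leaves out equality. In astrocyte-like cells 14 of 21 members were higher and 7 lower in E4 (66.7%, beside 52.9% of all genes higher, median log2 ratio 0.080 beside 0.012) and 1 was past 1.5-fold, beside 3.28% of all genes. Microglia-like cells had 10 of 12 members higher (83.3%, beside 63.2% of all genes, median 0.22), 1 past 1.5-fold beside 4.23%. Endothelial-like cells had 3 of 15 higher and 12 lower (beside 62.7% of all genes higher, median -0.12 beside 0.067), 1 past 1.5-fold beside 4.96%. Meningeal-like cells had 11 of 21 higher (beside 54.9% of all genes, median 0.0033 beside 0.034), 1 past 1.5-fold beside 7.14%, and with the median of all genes subtracted 9 of 21 were higher. Choroid plexus-like cells had 11 of 16 higher (68.8%, beside 58.4% of all genes) and 1 past 1.5-fold beside 5.22%, and ependymal-like cells 10 of 18 higher (beside 52.0% of all genes) and 2 past 1.5-fold beside 5.80%. In oligodendrocyte-like cells 0 of 6 were past 1.5-fold, beside 6.02%, and 3 were higher (beside 58.4% of all genes), or 2 with that median subtracted. In neuroprogenitor-like cells 0 of 2 were past it, beside 8.56%, and 1 was higher (beside 60.3% of all genes), or 0 with the median subtracted. Macrophage-like cells had no member with 50 UMIs.

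Fibrillar collagens of meningeal-like cells lay within 1.5-fold of E3. Col1a1 had a log2 ratio of -0.25 (-0.41 to -0.09), Col1a2 one of -0.16 (-0.25 to -0.06) and Col3a1 one of -0.21, the last within counting error. Col6a1 had one of -0.14. The direction for Col1a1 differed between sub-clusters. It was 174 CPM in E3 and 229 in E4 in the largest of them, 131 and 179 in the Msln and Dpp4 led cells, but 985 and 549 in the 23 cells with Lama1 and 675 and 139 in 21 cells led by astrocyte genes. With at least 1000 UMIs and at most 10% mitochondrial UMIs per cell, the log2 ratio of Col1a1 was 0.30, and without the sub-clusters led by glial or myelin genes it was -0.019 (-0.20 to 0.17). Col1a2 was at -0.00063 (-0.11 to 0.11) without those sub-clusters and at -0.055 (-0.20 to 0.086) with the stricter filter. Col14a1, which binds to fibrils, was at 43.9 and 21.3 CPM, from 85 and 39 UMIs, a log2 ratio of -1.04 (-1.63 to -0.48). Without the same sub-clusters it was -0.55 (-1.20 to 0.07). Lama2 was lower in E4 meningeal-like cells, 67.6 and 47.0 CPM, and Lamb2 and Col25a1 were higher, with log2 ratios of 0.29 each. With the stricter filter the intervals of Lama2 (-0.84 to 0.43) and Lamb2 (-0.19 to 0.50) met equality. Microglia markers summed to 472 CPM in E3 and 999 in E4 meningeal-like cells and macrophage markers to 16.0 and 70.5, and their part in these ratios was not tested.

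In endothelial-like cells Col4a1 had a log2 ratio of -0.12 (-0.18 to -0.05), Col4a2 one of -0.041 and Lama4 one of -0.28 (-0.52 to -0.03). With every cluster of the class weighted alike, Col4a1 was at 0.014 and Lama4 at 0.14. Lamb1 was the member past 1.5-fold, with 44 UMIs in E3 and 14 in E4, or 8.20 and 1.68 CPM, a log2 ratio of -2.29 (-3.27 to -1.40). The E3 UMIs of Lamb1 came from 1.17% of the cells and those of E4 from 0.920%, so that a cell with Lamb1 held more UMIs of it in E3. Without called doublets, and without cells holding markers of another class, Lamb1 was left with under 50 UMIs in this class. Mural markers, 11 of 11 detected, summed to 707 CPM in E3 and 810 in E4 endothelial-like cells, astrocyte markers to 1213 and 1607, and their part in the difference was not tested.

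Mural-like cells numbered 96 in E3, under the limit of 100, so their ratios are an added look. Of 10 members 9 were lower in E4 and 1 was higher (10%, beside 49.8% of all genes higher). Their median log2 ratio was -0.52 beside -0.001 for all genes, and 3 were past 1.5-fold, beside 12.8% of all genes. Lama4 was at 123 and 70.4 CPM (log2 ratio -0.80, -1.46 to -0.13), Col4a2 at 350 and 224 (-0.64, -1.02 to -0.27) and Lamb1 at 84.1 and 50.3 (-0.74, -1.53 to 0.071). Col4a1 at -0.58, Col1a2 at -0.57 and Lamc1 at -0.47 also left out equality. These calls depended on the setting. With at least 1000 UMIs and at most 10% mitochondrial UMIs per cell, Col4a1 was at -0.28 (-0.62 to 0.060), Col1a2 at -0.49 (-1.11 to 0.15) and Lamc1 at -0.24 (-0.68 to 0.19), and the median of the members was -0.26. Col4a2 was at 0.067 (-0.75 to 0.93) when cells were thinned to 1000 UMIs and at -0.14 as a mean over cells, and Lama4 was at -0.24 as a mean over cells. Endothelial markers summed to 392 CPM in E3 and 822 in E4 mural-like cells, and their part in these ratios was not tested. The mix of cells differed, with pericyte-like cells giving 38.5% of the mural-like UMIs in E3 and 30.0% in E4 and smooth muscle-like cells 33.6% and 45.1%. Within pericyte-like cells, Col4a1 was at 718 and 489 CPM, a log2 ratio of -0.56 (-0.99 to -0.11), Lama4 at -0.59 (-1.43 to 0.27), Lamc3 at -0.82 (-1.63 to -0.009), Lama2 at -0.084 and Lamc1 at -0.13. Within smooth muscle-like cells Col4a1 was at -0.50 (-1.003 to 0.029) and Col4a2 at -0.57 (-1.13 to 0.015). In the mural-like sub-cluster led by astrocyte genes Col4a1 was at -0.071 (-0.91 to 0.82), from 18 and 40 UMIs. The interval of Col4a1 left out equality among pericyte-like cells only, but its ratios in pericyte-like (-0.56) and smooth muscle-like cells (-0.50) were close. The difference between these 2 ratios was not tested. The part of the mix of cells in the mural-like ratios was not tested.

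**Figure D5:**
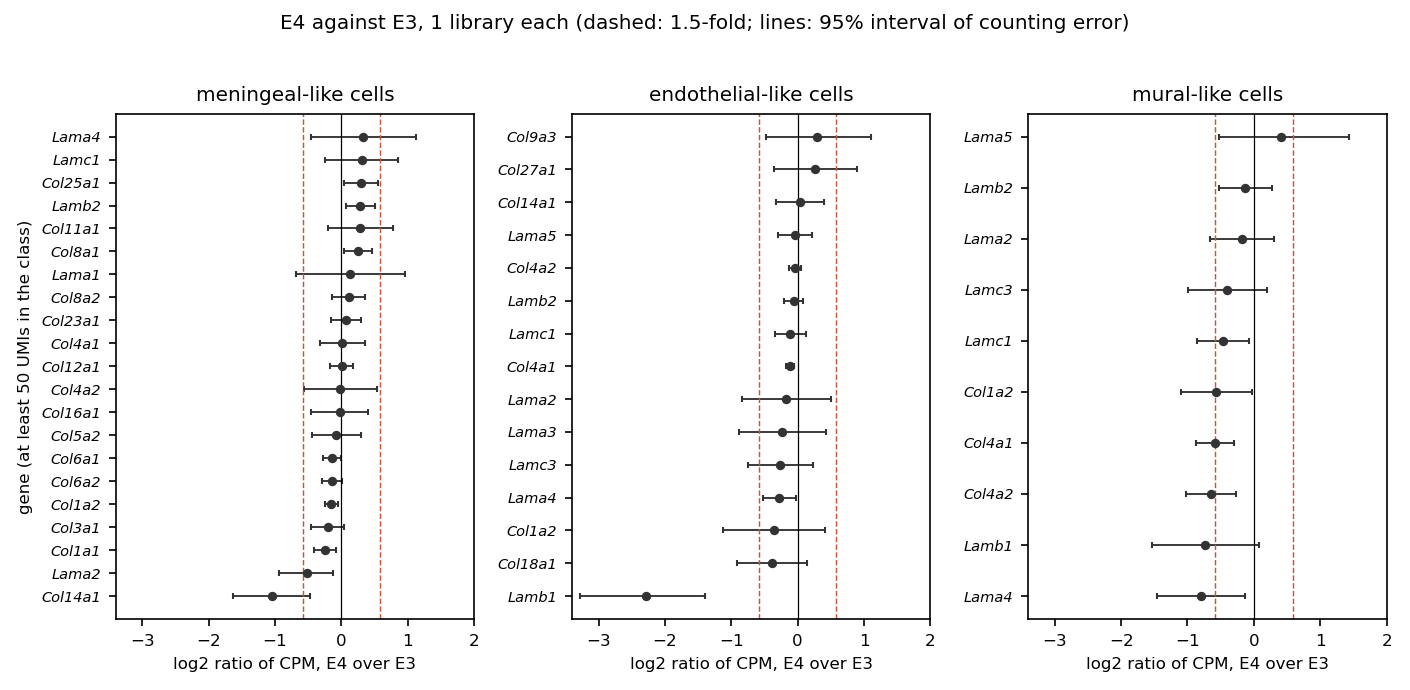
Log2 ratio of CPM in E4 over E3 (horizontal axis) for each member with at least 50 UMIs (vertical axis) in meningeal-like, endothelial-like and mural-like cells. Points are 1 library against 1, lines are 95% intervals of counting error and dashed lines mark 1.5-fold. Lamb1 in endothelial-like cells (-2.29) and Col14a1 in meningeal-like cells (-1.04) lie past the left dashed line, and 9 of the 10 mural-like points lie left of 0. Of all genes in mural-like cells, 49.8% were higher in E4.

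Among glia and ventricle-lining cells, Col23a1 was higher in E4. In astrocyte-like cells it was at 9.98 CPM in E3 and 15.4 in E4, from 144 and 244 UMIs, a log2 ratio of 0.63 (0.32 to 0.93), and 107 and 170 of these UMIs came from the Gfap-led cluster, where its level was 69.2 and 190 CPM. Ependymal-like cells had 5.09 and 28.9 CPM of Col23a1, from 14 and 70 UMIs, a log2 ratio of 2.50 (1.66 to 3.45), and 6.74% and 12.6% of the cells held it. Astrocyte markers were at 11.9% and 12.1% of their own level in these cells. Other foreign markers moved there, with choroid plexus markers at a sum of 2914 CPM in E3 and 510 in E4, microglia markers at 468 and 811 and endothelial markers at 308 and 168, and their part in the ratios of ependymal-like cells was not tested. Lama5 was lower there, 17.8 and 10.7 CPM, with a log2 ratio of -0.73 (-1.48 to -0.019), which met equality without called doublets (-1.67 to 0.063). In choroid plexus-like cells Col9a3 had a log2 ratio of 0.12 (0.037 to 0.21) and Col14a1, from 20 and 36 UMIs, one of 0.59 (-0.24 to 1.45). Col27a1 in microglia-like cells had one of 0.10 (0.022 to 0.18), Col6a3 one of 0.33 (0.030 to 0.63) and Col4a1 one of 0.59 (-0.062 to 1.28). Lamc1 in oligodendrocyte-like cells stood at 23.5 and 31.7 CPM, a log2 ratio of 0.44 (0.10 to 0.77). Erythroid-like cells had 71 UMIs of Col4a1 in E3 and 7 in E4, and 47 and 8 of Col4a2, both past 1.5-fold, beside 40.5% of all genes, whose median log2 ratio there was -0.17. All 8 endothelial markers were detected in erythroid-like cells, at a sum of 2146 CPM in E3 and 872 in E4, and their part in this was not tested.

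Genes that make, modify or bind collagen and laminin were taken from 6 lists. Counts below are over list genes with at least 50 UMIs, to be read beside the 4.80% of all such genes that were highest in meningeal-like and the 8.83% that were highest in microglia-like cells. Of 14 proteoglycan and microfibril genes, 8 were highest in meningeal-like cells in both libraries, but 3 of these, Ogn, Dcn and Lum, are on the list of markers used to name the class. Ogn and Dcn passed as such markers, so that their place was set by the naming and is no finding. Ogn stood there at 763 and 717 CPM and Dcn, like it a small proteoglycan that binds collagen fibrils, at 400 and 385. Aspn was highest in mural-like cells at 568 and 378. Of 11 processing and crosslinking genes 6 were meningeal, such as Pcolce (202 and 211 CPM), which helps to cut procollagen, and Adamts2 (142 and 134). Of 19 modifying enzymes and chaperones, 5 (26.3%) were highest in meningeal-like cells, with the collagen chaperone Serpinh1 at 376 and 431 CPM, and 5 in microglia-like cells, with the prolyl hydroxylase subunit P4ha1 at 307 and 283. Turnover genes were highest in meningeal-like cells for 4 of 9, among them Timp2 (606 and 618), an inhibitor of matrix proteases. Basement membrane proteins were spread, with Nid1 highest in mural-like cells (256 and 221 CPM), Hspg2 in endothelial-like cells (81.1 and 79.1), Fn1 in meningeal-like cells (849 and 931) and Sparc in microglia-like cells (2858 and 2895). Of the receptors, Itga1 (1016 and 908 CPM), Itgb1 (967 and 820) and Dag1 (263 and 309) were highest in mural-like cells, Itga6, a laminin receptor chain, in endothelial-like cells (527 and 540) and Lair1, an inhibitory collagen receptor, in microglia-like cells (467 and 554).

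Between genotypes, most genes of these lists lay within 1.5-fold. In meningeal-like cells Tll1, a procollagen protease, was at 11.9 and 28.4 CPM (log2 ratio 1.26, 0.53 to 2.04), Fmod at 43.3 and 27.9 (-0.64, -1.17 to -0.12) and Itga10 at 22.7 and 37.2 (0.71, 0.14 to 1.29), and 11 of 12 proteoglycan and microfibril genes were lower in E4, with a median log2 ratio of -0.17 beside 0.034 for all genes, in the class whose microglia and macrophage markers were higher in E4 as given above. In endothelial-like cells Bgn was at 28.0 and 10.1 CPM (-1.48, -1.88 to -1.08) and Eln at 30.4 and 16.3 (-0.90, -1.24 to -0.56). Of the 9 basement membrane genes tested there, 0 were past 1.5-fold, with Hspg2 at -0.036 (-0.21 to 0.14) and Nid1 at -0.056 (-0.29 to 0.18). In mural-like cells Tinagl1 was at 126 and 246 CPM and Ogn at 91.1 and 181, both higher in E4, and Aspn at 568 and 378. Tinagl1 was highest in endothelial-like cells, and in mural-like cells endothelial markers were at 1.85% of their own level in E3 and 3.89% in E4, a part that was not tested. Microglia-like cells had Lair1 at a log2 ratio of 0.25, and Serpinh1 was at 5.56 and 8.47 CPM (0.61, 0.19 to 1.03). Other genes of the lists past 1.5-fold with an interval that left out equality were Fkbp10 (log2 ratio 1.18) and Itga1 (1.01) in microglia-like, Loxl2 (-1.13) in astrocyte-like, Fn1 (-1.73), Tinagl1 (0.63) and Itga1 (0.63) in choroid plexus-like, Lair1 (1.11) and Plod3 (0.64) in ependymal-like, Adamts2 (-0.87), Nid1 (-0.72) and Lair1 (0.74) in oligodendrocyte-like and P4ha1 (-0.65) in mural-like cells. In smaller classes they were Timp4 (-1.29) in macrophage-like, Timp4 (0.77) and Lair1 (0.98) in neuroprogenitor-like, and Fn1 (-0.98), Timp3 (-0.64) and Itga1 (-1.41) in erythroid-like cells. Lair1, highest in microglia-like cells, was higher in E4 in classes where microglia markers were higher too, with sums of 468 and 811 CPM in ependymal-like, 915 and 1384 in oligodendrocyte-like and 1515 and 2153 in neuroprogenitor-like cells, and their part in the ratios of Lair1 was not tested.

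Over the 22 values of 11 classes in 2 libraries, the genes outside the family whose log2(CPM + 1) followed Col1a1 most closely among 12158 genes were Prrx2 (Pearson r 0.95), Mpzl2 (0.93), Prg4 (0.92), Slc47a1 (0.92) and Tnfrsf11b (0.92). Slc47a1 is also a marker used to name the meningeal-like class. For Col4a1 they were Ehd2 (0.95), Fzd6 (0.94), Tns2 (0.93), Itih5 (0.92) and Filip1 (0.92), and Col4a2 was at 0.98. Points of 1 library share their depth and the 2 libraries share their classes, so these values are a description.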

How the data were processed

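Cells of 1 E3 and 1 E4 library were analysed, with the genotype of each taken from the labels. The authors made the deposited UMI counts per gene and cell with Cell Ranger (6.1.2 for E3 and 6.1.1 for E4 in the headers) on mm10, without normalization, and the annotation is not given in the sources used here. Single-cell 3′ UMIs are not scaled by length. Members and lists were chosen with earlier results of these data known.

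The stated filter of the study (50 to 50000 UMIs and at most 30% mitochondrial) was applied again. Cells were scaled to 10000 UMIs, and 2000 variable genes other than the members gave 20 principal components, a graph of 15 neighbours and Leiden clusters at a resolution of 1 (scanpy 1.11.5, leidenalg 0.10.2), without batch correction. A cluster took a name from at least 3 fixed markers, each 2-fold higher and in 20% of its cells, and was called mixed where a second class reached 75% of the markers passed. These thresholds were set after the clusters were seen. Mixed cells were in no class, and doublets called per cell (8.82% and 9.89%) were left out in an alternative only. Of meningeal-like cells 19.3% and 18.3% were called doublets in E3 and E4, and of ependymal-like cells 22.3% and 22.1%. Mural-like and meningeal-like cells were clustered again on 1000 variable genes and 10 components at a resolution of 0.5.

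UMIs were summed per class and library and divided by the class total (CPM). Levels have exact Poisson, shares exact Clopper-Pearson and ratios exact binomial-split 95% intervals. A call past 1.5-fold needed 50 UMIs in a class of 100 cells per library. A highest level was called clear where its interval over the next class left out equality in both libraries. The steps were tested on simulated counts. Members described in full are those highest in their role group, those outside the class of most of their group, and every member past 1.5-fold. Other genes are the most abundant or past 1.5-fold of each list. Positions come from GENCODE vM21 (GRCm38), which matched 32158 of 32285 genes. One item is not reported here.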

Additional observations from a re-analysis of the deposited data

Results flagged for a closer look

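Some members lay on opposite sides of equality between E4 and E3 in 2 cell classes, each with an interval that left out equality, though the differences between classes were not tested. The log2 ratios of Col4a2 in astrocyte-like and erythroid-like cells differed by 2.37 and those in astrocyte-like and mural-like cells by 1.10. For Lamb2, the ratios in meningeal-like and astrocyte-like cells differed by 0.55, and for Lamc1, those in oligodendrocyte-like and mural-like cells by 0.91. The mural-like ratios rest on 96 E3 cells, and the erythroid-like ones on 8 E4 UMIs of Col4a2.

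Cells of clusters with mixed markers, which are in no class, drew 0.159% of their UMIs from collagen and laminin genes in E3 and 0.153% in E4. That is between endothelial-like and mural-like cells, and endothelial markers there stood at 66.4% and 62.6% and mural markers at 27.8% and 28.7% of their own class's level.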

How the results depend on the processing

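No paired analysis was possible because each genotype has 1 library, and no replicate could be left out. The number of members highest in meningeal-like cells was 13 to 20 over the settings tried and in mural-like cells 8 to 12. No mural-like class formed at a clustering resolution of 0.5.

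Of the shares of UMIs over both libraries in other settings, 11 lay outside the counting interval of the main setting and 15 within it. Meningeal-like cells were at 0.390% and at 0.408% with at least 1000 UMIs and at most 10% mitochondrial UMIs per cell, 0.383% without cells holding markers of another class and 0.446% with totals free of mitochondrial, haemoglobin and rRNA-overlapping genes. Mural-like cells were at 0.223%, and at 0.251%, 0.252% and 0.252% in those settings and 0.234% without sub-clusters led by glial genes. Endothelial-like cells were at 0.127%, and at 0.132% without called doublets, 0.125% without cells holding markers of another class, 0.140% with the reduced totals and 0.132% without the 3 clusters that held many markers of another class. The settings without those clusters, without the glial sub-clusters, with at least 90 cells and within pericyte-like cells were chosen after seeing the data. Leaving out cells with markers of another class kept only 58 of 176 E3 and 58 of 186 E4 meningeal-like cells. Of the mural-like cells it kept 75 of 96 and 144 of 204.

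The 9 pairs of member and class past 1.5-fold became 4 without called doublets, 2 without cells holding markers of another class, 4 with cells thinned to 1000 UMIs, 28 with a minimum of 20 UMIs, 1 with a minimum of 200, 5 at 2-fold and 22 with a mean over cells, so most rest on few UMIs. Fewer cells or UMIs pass in several of these settings by construction. Lama2 in pericyte-like over smooth muscle-like cells was 4.67 (log2) at a sub-cluster resolution of 1.

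Some single members turned direction, and the cause was not tested. For the level over the next class (log2), these were Col11a2 in astrocyte-like cells at a resolution of 2 (-0.55), Col9a2 in meningeal-like cells without cells holding markers of another class (-0.69) and Col6a3 in microglia-like cells with the reduced totals (-0.16). For E4 over E3, these were Col1a1 in meningeal-like cells with the stricter filter (0.30), Lamb2 in meningeal-like (-0.030) and Col4a2 in mural-like cells (0.067) when thinned, and Col4a1 (0.014) and Lama4 (0.14) in endothelial-like cells with clusters weighted alike. Depth limits members under about 50 UMIs in a class, where the interval spans more than 2-fold.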
